A study of Mus musculus with 10 samples.

Results

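The genes described here are erythroid genes other than the globins: 35 genes for regulators, receptors, carbonic anhydrases, heme enzymes, and surface and membrane skeleton proteins of the red cell lineage. They were chosen by name, and a probe counted for a gene when its design accession is a RefSeq transcript of that gene. This gave 42 probes for 34 of the 35 genes, out of 20972 genes named on the array. Ahsp, the alpha globin chaperone, was matched by no accession and is not analysed here. The data are 1-colour Agilent expression arrays of LSK cells, the lineage-negative, Sca-1-positive, Kit-positive bone marrow fraction that holds stem cells and multipotent progenitors. The cells were sorted as CD45.2-positive donor cells from transplanted C57BL/6 mice given tamoxifen. The 8 arrays labelled KO carry Cre-Ert with floxed Ezh2 alleles (Cre-Ert;Ezh2fl/fl), and the 2 arrays labelled WT carry Cre-Ert alone, so the controls also hold the Cre and received tamoxifen.

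The 8 KO arrays comprise 1 at 3 months after transplantation with no disease, and 7 at 9 to 12 months. Of these 7, 2 are labelled MDS (myelodysplastic syndrome) and 3 MDS/MPN (with myeloproliferative features). Another 1 has an undetermined disease, and 1 is labelled as a mixture of diseases. The disease label of MDS/MPN array 1 carries the added letters TC and the source label of MDS/MPN array 3 the added letters CMMoL, which are not explained. The WT arrays comprise 1 at 9 to 12 months and 1 at 3 months, both without disease. The design text gives 3 mice at 3 months but there is 1 array per genotype. Pooling of animals is not stated for the WT, mixed and 3-month KO arrays, nor is it stated that each coded sample is 1 mouse. P-values therefore measure the spread between these samples only. The 3-month arrays lie on slide 1 and the 8 others on slide 2, where the WT, mixed and MDS arrays occupy line 1 and the MDS/MPN and undetermined arrays line 2. Time and slide, and disease label and line, cannot be told apart. The deposited value table holds, under the labels of the 4 WT, mixed and 3-month KO arrays, the values of the array with the same genotype on the other slide. Which time labels are right is not settled: under those of the value table, the 3-month pair and the pair of the mixed array with the 9 to 12 month WT array would exchange times. Times below follow the scanner files, and the comparison over all arrays does not depend on them.

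Red cell production is driven by Gata1, which works with Tal1, its cofactor Zfpm1 (FOG1) and Klf1 to switch on erythroid genes. Erythropoietin, through its receptor Epor, keeps committed erythroid progenitors alive, and transferrin receptor brings in the iron that the heme pathway uses. Gata1, Klf1, Epor and Car1 are known to be on in early committed progenitors, whereas Alas2, band 3 (Slc4a1) and the membrane skeleton build up in later erythroblasts. LSK cells are upstream of erythroid commitment, so these genes are usually low in them.

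The bases before the start of the genes that the results turn on are shown for their GATA and CACC letters, the forms read by Gata1 and Klf1. They are the 250 bases before the annotated start (RefSeq, GRCm38.p6), 5′ to 3′ on the strand of the gene. Klf1 is the regulator with the widest range. Epor, Slc38a5 and Tspo2 were higher on every KO array than on either WT array, Kel was well above background on KO arrays alone, and Alas2 was highest on an array where Klf1 was not. Capitals mark 4 GATA forms: AGATAA, its variant with a final G (AGATAG), the form that opens with T (TGATAA) and that form with a final G (TGATAG). They also mark the CACC form CCNCNCCC. Both strands were searched, and overlapping matches run together. The windows lie at chr8:84901732-84901981 (plus strand) for Klf1, chr9:21963577-21963826 (minus) for Epor and chr6:41704326-41704575 (minus) for Kel. Those of Slc38a5, Tspo2 and Alas2 lie at chrX:8271131-8271380 (plus), chr17:48451502-48451751 (minus) and chrX:150547167-150547416 (plus).
Klf1: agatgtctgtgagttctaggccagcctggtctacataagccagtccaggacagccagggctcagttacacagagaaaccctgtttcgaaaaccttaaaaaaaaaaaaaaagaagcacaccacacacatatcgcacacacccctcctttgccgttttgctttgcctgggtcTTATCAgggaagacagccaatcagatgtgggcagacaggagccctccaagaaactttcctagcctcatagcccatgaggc
Epor: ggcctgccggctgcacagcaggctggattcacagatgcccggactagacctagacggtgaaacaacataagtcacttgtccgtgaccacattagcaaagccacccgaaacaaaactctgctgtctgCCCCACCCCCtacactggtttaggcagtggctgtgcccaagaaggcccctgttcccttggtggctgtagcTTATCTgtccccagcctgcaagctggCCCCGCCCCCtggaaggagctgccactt
Kel: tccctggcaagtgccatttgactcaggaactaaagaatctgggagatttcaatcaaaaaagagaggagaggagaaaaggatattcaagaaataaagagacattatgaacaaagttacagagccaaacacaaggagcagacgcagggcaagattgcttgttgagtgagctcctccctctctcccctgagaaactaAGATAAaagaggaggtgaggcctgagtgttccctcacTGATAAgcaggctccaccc
Slc38a5: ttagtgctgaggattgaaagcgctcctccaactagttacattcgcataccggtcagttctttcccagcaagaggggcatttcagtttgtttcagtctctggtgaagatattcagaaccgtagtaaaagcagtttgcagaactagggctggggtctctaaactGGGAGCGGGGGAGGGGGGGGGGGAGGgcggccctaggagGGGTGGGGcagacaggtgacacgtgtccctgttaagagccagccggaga
Tspo2: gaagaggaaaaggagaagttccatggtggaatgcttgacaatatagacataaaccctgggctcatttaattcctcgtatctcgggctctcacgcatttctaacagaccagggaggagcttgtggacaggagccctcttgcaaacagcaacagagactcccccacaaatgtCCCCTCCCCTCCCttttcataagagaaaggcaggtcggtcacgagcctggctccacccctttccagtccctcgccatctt
Alas2: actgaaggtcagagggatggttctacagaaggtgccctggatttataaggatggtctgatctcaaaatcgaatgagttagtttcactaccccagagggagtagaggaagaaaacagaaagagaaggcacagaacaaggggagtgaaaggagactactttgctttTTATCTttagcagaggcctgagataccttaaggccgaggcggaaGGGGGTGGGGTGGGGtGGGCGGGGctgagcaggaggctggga

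The Klf1 window holds 1 GATA form, 80 bases before the start, and no CACC form, and the Kel window holds 2 GATA forms. Epor and Alas2 each hold 1 GATA form and 4 matches of the CACC form, Slc38a5 holds 9 CACC matches and Tspo2 2, both with no GATA form. Of the 27 erythroid genes with a RefSeq window, 17 (63.0%) held a GATA form, against 29.7% of all 27025 genes with a window. The CACC form stood in 17 of the 27 (63.0%), against 48.5% of all genes. The E-box CAGNTG, which Tal1 complexes can bind, stood in 11 (40.7%), against 48.2% of all genes. A match describes letters in these windows and is neither a binding site nor a cause. Windows of Ahsp, Ank1, Car1, Car2, Fech, Nfe2, Slc25a37 and Slc4a1 were not used here.

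Levels are given as log2 of the array signal over the array's own 75th percentile, so 0 is the brightness that 75% of probes stay under. The 75th percentile lay between 78.7 and 301.7 intensity units, with the highest value on MDS/MPN array 2, and 32.5% to 47.5% of probes were well above background. The number of arrays limits the precision. All 5 genes that define or accompany the gate (Kit, Ly6a, Ptprc, Cd34 and Flt3) were well above background on all 10 arrays. Kit lay between 3.86 and 4.11 on the 3-month KO, MDS/MPN and undetermined arrays and between 4.74 and 5.23 on the mixed and MDS arrays, against 5.06 and 5.16 on the WT arrays. The summed level of the 5 was 7.78 to 8.07 on the MDS/MPN and undetermined arrays and 8.67 to 8.95 on the other KO arrays, against 8.89 and 8.33 on the WT arrays at 9 to 12 and 3 months. The part of these levels in the results was not tested. Ezh2 lay between 2.13 and 3.35 on KO arrays, against 2.14 and 2.63 on WT arrays. Whether its only named probe reads the deleted part of the gene is not given, so this does not check the genotype. Of the 34 erythroid genes, 23 were well above background on all 10 arrays, and Epb42 and Sptb on none. Levels of different genes are not set against each other, because probes differ in brightness. Fewer erythroid cells and less erythroid RNA per cell cannot be told apart in these bulk samples.

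Most of the erythroid genes lay higher in KO than in WT LSK cells, by very different amounts from array to array, and none passed the test. Of the 34 genes, 29 had a positive KO minus WT difference, where 53.3% of all tested features did. A difference of 2-fold or more was found for 13, and the share of all features at that size was not counted. The 13 include Ank1, which was too dim to be tested. They also include Kel, Add2 and Rhag, which were well above background on neither WT array, so part of this count rests on background signal. No gene was 2-fold or more lower. The median difference over the 34 was 0.74 on the log2 scale, against 0.03 over all 22365 features tested. With limma, the slide in the fit and Benjamini-Hochberg adjustment, 0 of the 30 genes bright enough to be tested were called at an adjusted p under 0.05, and 0% of all features were. At an unadjusted p under 0.05, 7 erythroid genes were higher and 0 lower, where 1.9% and 3.64% of all features were. Those 7 were Add2, Car1, Kel, Klf1, Slc38a5, Tfrc and Tspo2. Add2 and Kel were bright enough to be tested through the KO arrays alone, which favours a higher KO value. Every KO array lay above both WT arrays for 7 genes, against 3.17% of all features, and every KO array lay below for 0, against 2.74%. Of these 7, Epor, Tfrc, Car1, Slc38a5 and Tspo2 were well above background on all 10 arrays. They were 5 of 23 erythroid genes so measured, against 4.13% of all features so measured, and 0 of the 23 lay below (1.85%). The other 2, Kel and Add2, were not well above background (called at background below) on both WT arrays and on 1 and 3 KO arrays, so part of their order is one of background signals. The filter keeps a gene that is bright in either group, so a gene that passed it through the KO arrays alone was more likely to lie higher in KO. Alas2 also passed that way, with a fitted difference of -0.17. The median was 0.51 without the undetermined array and 0.37 with normexp background correction and quantile normalization.

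**Figure D1:**
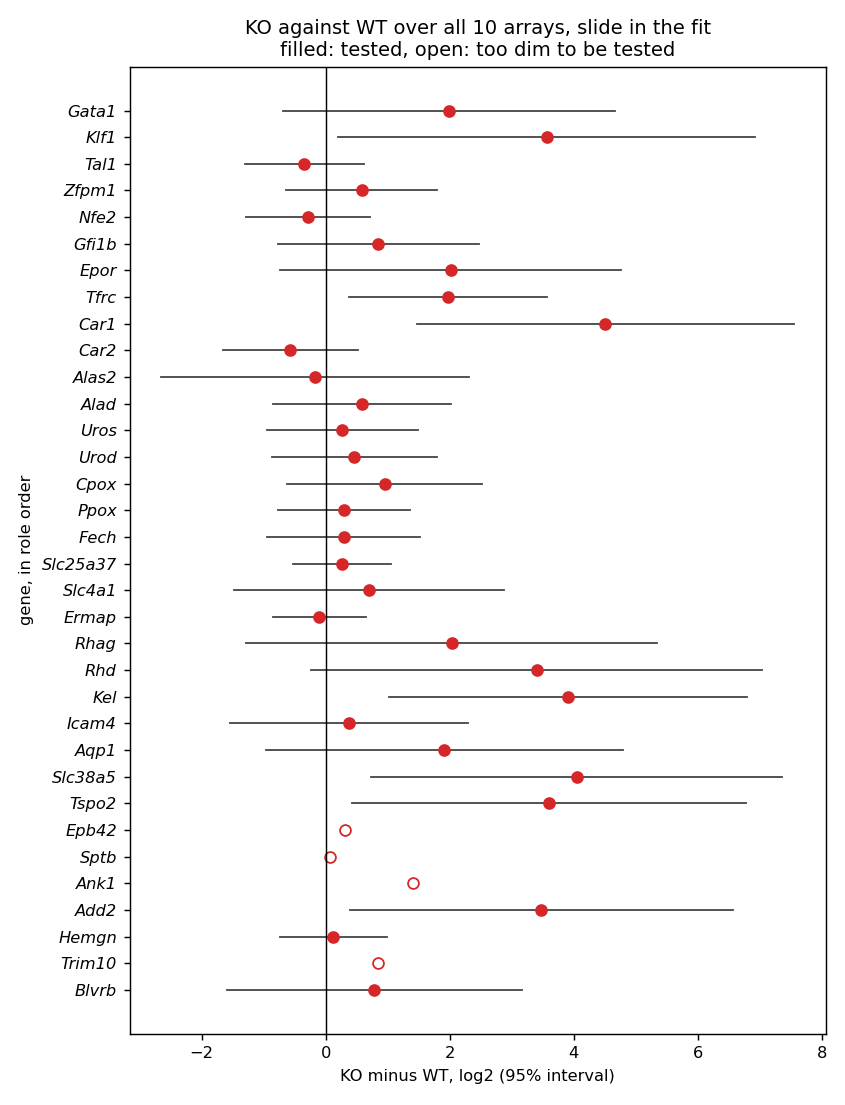
KO minus WT difference in log2 level for the 34 erythroid genes (rows, in role order), from the fit over all 10 arrays with slide as a term. Lines are 95% intervals of the 30 tested genes, open points are the 4 genes too dim to be tested. Car1 at 4.51 and Slc38a5 at 4.04 lie farthest to the right, and the heme genes lie near 0.

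Among the 6 regulators, Klf1, the zinc finger factor that activates much of the erythroid program (chr8:84901982-84905291), had the largest difference. Its lowest KO level was -1.62 (MDS/MPN array 2), its median 1.02 and its highest 3.94 (undetermined array), against -1.16 in WT at 9 to 12 months and -4.24 in WT at 3 months. It lay above the WT array of its slide on 7 of 8 KO arrays, by only 0.0065 on the mixed array, and below it on MDS/MPN array 2. The fitted difference was 3.56 ± 1.52 (SE), with an adjusted p of 0.86. Klf1 was well above background on 1 of the 2 WT arrays, the one at 9 to 12 months, so the size rests in part on a background signal. Without either 3-month array the fit rests on slide 2 alone and gave 2.08. Without the 9 to 12 month WT array it rests on the 3-month pair, where Klf1 was at least 37.0-fold higher in KO. With normexp and quantile normalization no erythroid gene of that pair was higher by more than 4.11 on the log2 scale, which is smaller than that bound.

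Gata1 (chrX:7959260-7976663) ran from 2.13 to 6.67 on KO arrays, with a median of 3.895, against 2.78 and 1.57 on the WT arrays at 9 to 12 and 3 months. Its fitted difference was 1.98 ± 1.21 (SE, adjusted p = 0.97). The groups overlapped, since the mixed array and MDS/MPN array 2 lay below the WT array of their slide. Gfi1b, a repressor needed for erythroid and megakaryocyte development, differed by 0.85 ± 0.73, and Zfpm1 by 0.58 ± 0.55. Tal1 and Nfe2, which megakaryocytes and stem cells also use, differed by -0.34 ± 0.43 and -0.28 ± 0.45. None of the 4 passed the test. Tal1 stayed between 2.92 and 4.53 on KO arrays, against 4.32 and 4.52 on WT arrays. The regulators as a group thus held 4 positive and 2 negative differences with a median of 0.71.

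Both receptors, each on its brightest probe, were higher on every KO array than on either WT array. Epor (chr9:21958897-21963576) had a lowest, median and highest KO level of 0.57, 1.88 and 5.38, against 0.50 and 0.07 on the WT arrays at 9 to 12 and 3 months. The lowest KO value, from MDS/MPN array 2, was only 0.07 above the WT array of its slide. The fitted difference was 2.01 ± 1.24 (SE, adjusted p = 0.97). Tfrc (chr16:32608896-32632794), the transferrin receptor, had KO levels of -0.34, 1.04 and 2.59, against -0.58 and -1.39 on WT arrays, with a difference of 1.98 ± 0.72 (SE, adjusted p = 0.73). On MDS/MPN array 2, where Klf1, Gata1 and Epor had their lowest KO levels, Tfrc stood at 1.99. Its probes disagreed in size: KO mean minus WT mean was 2.18 on the brightest probe and 1.02 on another probe seen on all 10 arrays. On that other probe the groups overlapped, with KO levels of -0.92 to 1.11, against -0.89 and -0.63 on the WT arrays.

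The carbonic anhydrases differed in sign. Car1 (chr3:14766214-14808365), the isoform of early erythroid progenitors in the mouse, had KO levels of 1.64, 4.05 and 6.57 (lowest, median, highest), against 0.33 and -1.48 on the WT arrays at 9 to 12 and 3 months. Each KO array exceeded both WT arrays, by 1.32 on the log2 scale or more over the WT array of its slide. The difference of 4.51 ± 1.38 (SE, adjusted p = 0.62), or 22.7-fold, was the largest of the 34, and its second probe gave the same size (4.70, against 4.74). The difference was 3.83 without either 3-month array, 5.68 without the 9 to 12 month WT array and 3.54 with normexp and quantile normalization. Car2, its broadly used relative, lay between 4.98 and 6.63 on KO arrays, against 5.92 and 6.82 on WT arrays, a difference of -0.57 ± 0.49 (SE, adjusted p = 0.97).

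**Figure D2:**
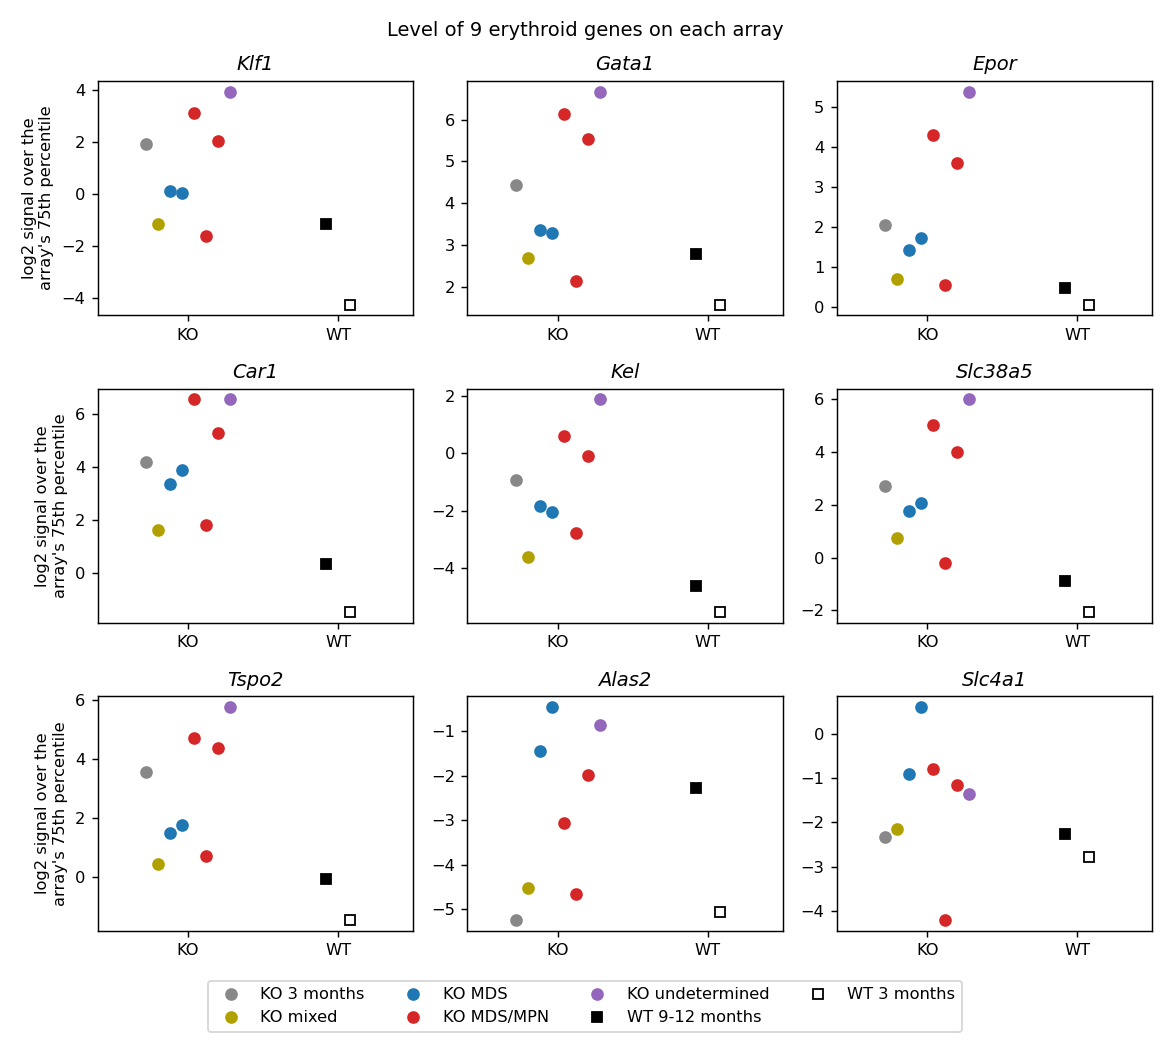
Level of 9 erythroid genes (panels) on each array, as log2 signal over the array's 75th percentile, with the 8 KO arrays left and the 2 WT arrays right. Each point is 1 array, with no averaging. Epor, Car1, Slc38a5 and Tspo2 show no overlap of KO and WT, nor does Kel, which was at background on both WT arrays, and Alas2 and Slc4a1 are highest on MDS array 2.

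The 8 genes of heme synthesis had small differences: 7 differences were positive, none reached 2-fold and the median was 0.29. Cpox, the coproporphyrinogen oxidase, had the largest at 0.95 ± 0.71 (SE, adjusted p = 0.97), and it lay above the WT array of its slide on all 8 KO arrays. Alad and Urod, which act earlier in the pathway, differed by 0.58 ± 0.65 and 0.46 ± 0.60. Uros, Ppox, Fech (ferrochelatase, which inserts the iron) and the mitochondrial iron importer Slc25a37 differed by 0.26 to 0.30, with Fech at -0.041 without the 9 to 12 month WT array. Urod levels on the WT arrays were 5.79 and 5.80, while KO arrays ranged over 4.95, 6.07 and 7.31. The WT arrays thus lay close together, inside the range of the KO arrays.

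Alas2 (chrX:150547417-150570622), the erythroid form of the enzyme that starts heme synthesis, was highest on MDS array 2. It was well above background on 4 KO arrays and on neither WT array. The KO levels were -0.45 on MDS array 2, -0.85 on the undetermined array, -1.45 on MDS array 1 and -1.98 on MDS/MPN array 3. The other 4 KO arrays, at background, lay between -5.25 and -3.06, against -2.27 and -5.06 on the WT arrays, also at background. The fitted difference was -0.17 ± 1.12 (SE, adjusted p = 0.999). Its sign turned without the slide term (0.89), with normexp and quantile normalization (0.0062), without the mixed array (0.053) and without MDS/MPN array 2 (0.068). No direction can be given for it.

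Of the 9 surface proteins and transporters, 6 differed by 2-fold or more and 8 were positive, with a median of 2.03. Slc38a5 (chrX:8271381-8280179), a glutamine transporter, had KO levels of -0.20, 2.38 and 5.97 (lowest, median, highest), against -0.88 and -2.07 on the WT arrays. Its difference was 4.04 on the log2 scale with a 95% interval of 0.73 to 7.35 (adjusted p = 0.74). Tspo2 (chr17:48447942-48451564), an erythroid member of the translocator protein family, had KO levels of 0.45, 2.65 and 5.75, against -0.06 and -1.44, a difference of 3.60 ± 1.43 (SE, adjusted p = 0.81). Kel (chr6:41686329-41704334), the Kell blood group protein, had KO levels of -3.61, -1.38 and 1.89, against -4.62 and -5.55. It was well above background on 7 KO arrays and on neither WT array, so the ratio of means is given as a bound: at least 3.30-fold higher in KO, with an adjusted p of 0.66. The fitted log2 difference was 3.91, and 1.16 with normexp and quantile normalization, which is smaller than that bound. Such bounds set the KO mean against the dimmest signal that was still well above background on the WT arrays, or the gene's own signal where that was brighter.

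The Rh proteins and the water channel also ranged widely. Rhd, the Rh blood group protein, had KO levels of -2.11, 1.40 and 6.02, against -0.97 and -3.37, a difference of 3.40 ± 1.64 (SE, adjusted p = 0.94). It was at background on the 3-month WT array, and the difference was 2.62 without either 3-month array. Rhag, its partner glycoprotein, was well above background on 5 KO arrays and on neither WT array, and its mean was at least 2.03-fold higher in KO (adjusted p = 0.97). With normexp and quantile normalization its log2 difference was 0.81, which is smaller than that bound. On the mixed array (-4.63) and MDS/MPN array 2 (-4.69) Rhag lay below the WT array of the slide (-3.49), all at background. Aqp1 differed by 1.91 ± 1.30 and Icam4, an adhesion protein of erythroblasts, by 0.38 ± 0.87 (SE). Rhd, Aqp1 and Icam4 each lay below the WT array of their slide on MDS/MPN array 2.

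Slc4a1 (chr11:102348820-102365281), the anion exchanger band 3, had its highest level on MDS array 2, as Alas2 did. Its KO levels were -4.20, -1.26 and 0.61 (lowest, median, highest), against -2.27 and -2.78 on the WT arrays. It was well above background on 6 KO arrays and 1 WT array. The difference was 0.70 ± 0.98 (SE, adjusted p = 0.98). Ermap, an erythroblast membrane protein, has 3 probes that disagree. The brightest differed by -0.14 between the KO and WT means, and the other 2 by 3.36 and 3.19. The brightest probe stayed between 0.74 and 1.54 on KO arrays, against 0.93 and 1.61 on WT arrays. A difference taken over the median probe was 2.99, so no direction is given for Ermap.

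The membrane skeleton was mostly too dim to measure. Epb42 (protein 4.2) and Sptb (beta spectrin) were well above background on no array, Ank1 (ankyrin) on 2 and Trim10 on 1. Ank1 was well above background on the 3-month KO array (-1.84) and on the undetermined array (-0.31). Add2 (beta adducin, chr6:86028681-86124409) had KO levels of -3.83, -1.28 and 2.12, against -4.26 and -5.09 on WT arrays. It was well above background on 5 KO arrays and on neither WT array, and was at least 2.92-fold higher in KO (adjusted p = 0.81). The fitted log2 difference was 3.48, and 1.12 with normexp and quantile normalization, which is smaller than that bound. Hemgn, a nuclear factor of blood progenitors, lay between 5.95 and 7.46 in KO, against 6.43 and 7.10 in WT, a difference of 0.12 ± 0.39 (SE) that was -0.16 with quantile normalization. Blvrb, biliverdin reductase B, differed by 0.79 ± 1.08 (SE).

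Setting each KO array against the WT array of its slide shows how the differences varied between arrays. The 7 KO arrays of slide 2 share 1 WT array, so their values are given side by side and carry no test. Among erythroid genes well above background on either array of the pair, 12 of 29 were at least 2-fold higher on the 3-month KO array, where 12.8% of all features were. The counts were 3 of 25 on the mixed array (4.51% of all features), 9 of 29 on MDS array 1 (7.03%) and 12 of 30 on MDS array 2 (7.76%). They were 21 of 29 on MDS/MPN array 1 (10.1%), 3 of 26 on MDS/MPN array 2 (16.4%), 19 of 30 on MDS/MPN array 3 (12.5%) and 26 of 32 on the undetermined array (18.1%). At least 2-fold lower were 5 genes on MDS/MPN array 2 (17.1% of all features) and 1, Car2, on the 3-month KO array (12.1%). On the other 6 KO arrays 0 were 2-fold lower, where 4.35% (mixed), 6.86% (MDS 1), 5.84% (MDS 2), 11.9% (MDS/MPN 1), 10.5% (MDS/MPN 3) and 14.3% (undetermined) of all features were. Over all 34 genes the median difference was 0.60 at 3 months, 0.02 on the mixed array, and 0.29 and 0.48 on the MDS arrays. It was 1.61, -0.56 and 1.11 on MDS/MPN arrays 1 to 3, and 2.44 on the undetermined array. Among the 23 erythroid genes well above background on all 10 arrays, the undetermined array was the highest KO array for 22, and it was for 30.1% of the other features so measured. MDS/MPN array 2 was the lowest for 14 of the 23, and for 45.3% of the others. The median of MDS/MPN array 2 was -0.11 with quantile normalization and -0.02 with normexp and quantile normalization. Under that last setting the medians of MDS/MPN arrays 1 and 3 and of the undetermined array were 1.07, 0.68 and 1.37. With normexp and quantile normalization the counts of genes at least 2-fold higher fell, and so did the shares of all features. The 3-month KO array had 10 (2.32% of all features), the mixed array 1 (1.41%), MDS array 1 4 (2.31%) and MDS array 2 6 (2.19%). MDS/MPN arrays 1 to 3 had 17 (4.09%), 2 (5.81%) and 12 (3.73%), and the undetermined array 22 (4.76%).

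**Figure D3:**
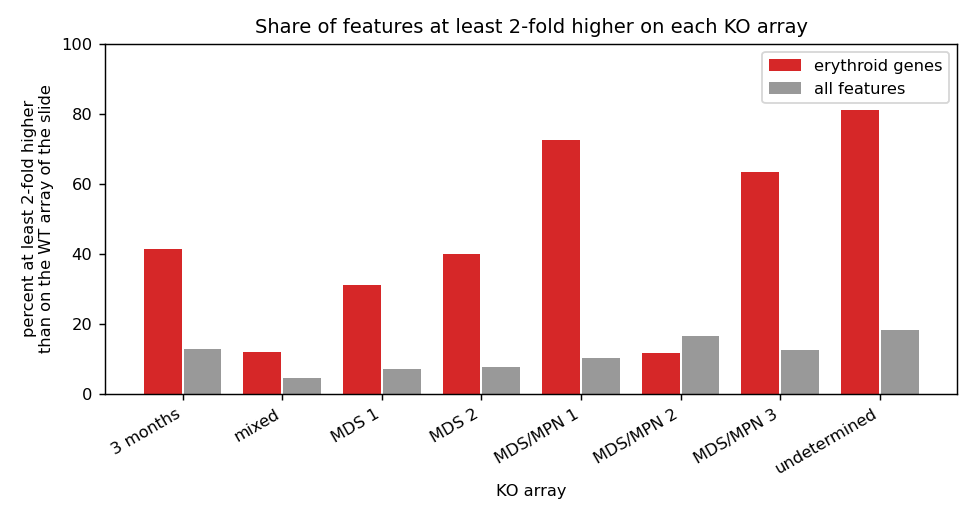
Percent of erythroid genes (red, left bar) and of all features (grey, right bar) at least 2-fold higher on each KO array than on the WT array of its slide, among those well above background on either array. Bars have no error, since each is 1 pair of arrays. The red bar is the taller on 7 of 8 KO arrays, the exception being MDS/MPN array 2.

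At 3 months as labelled here, with no disease label, the KO array exceeded the WT array of its slide in genes of several roles. Under the labels of the value table, this KO array and the mixed array would exchange time and disease labels. Which labels are right is not settled, so the differences of this pair cannot be assigned to a time or a disease state. Klf1 was at least 37.0-fold higher, Car1 51.4-fold, Tspo2 31.7-fold, Slc38a5 26.9-fold, Gata1 7.22-fold and Epor 3.93-fold. Among proteins of the surface and the membrane skeleton, Rhd was at least 25.9-fold higher, Add2 at least 6.57-fold, Kel at least 5.17-fold and Ank1 at least 2.76-fold. These sizes depend on the processing. With normexp and quantile normalization the largest difference of any erythroid gene in this pair was 4.11 on the log2 scale. That is smaller than the values and bounds given here for Klf1, Car1, Tspo2, Slc38a5 and Rhd. Slc4a1 was at 1.35-fold, and Alas2 was not well above background on either array. These are 1 array each, with no replicate. On the mixed array Gata1 was at 0.94-fold of the WT array and Klf1 differed from it by 0.0065 on the log2 scale, while Slc38a5 was at 3.05-fold, Rhd at 2.58-fold and Car1 at 2.49-fold.

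**Figure D4:**
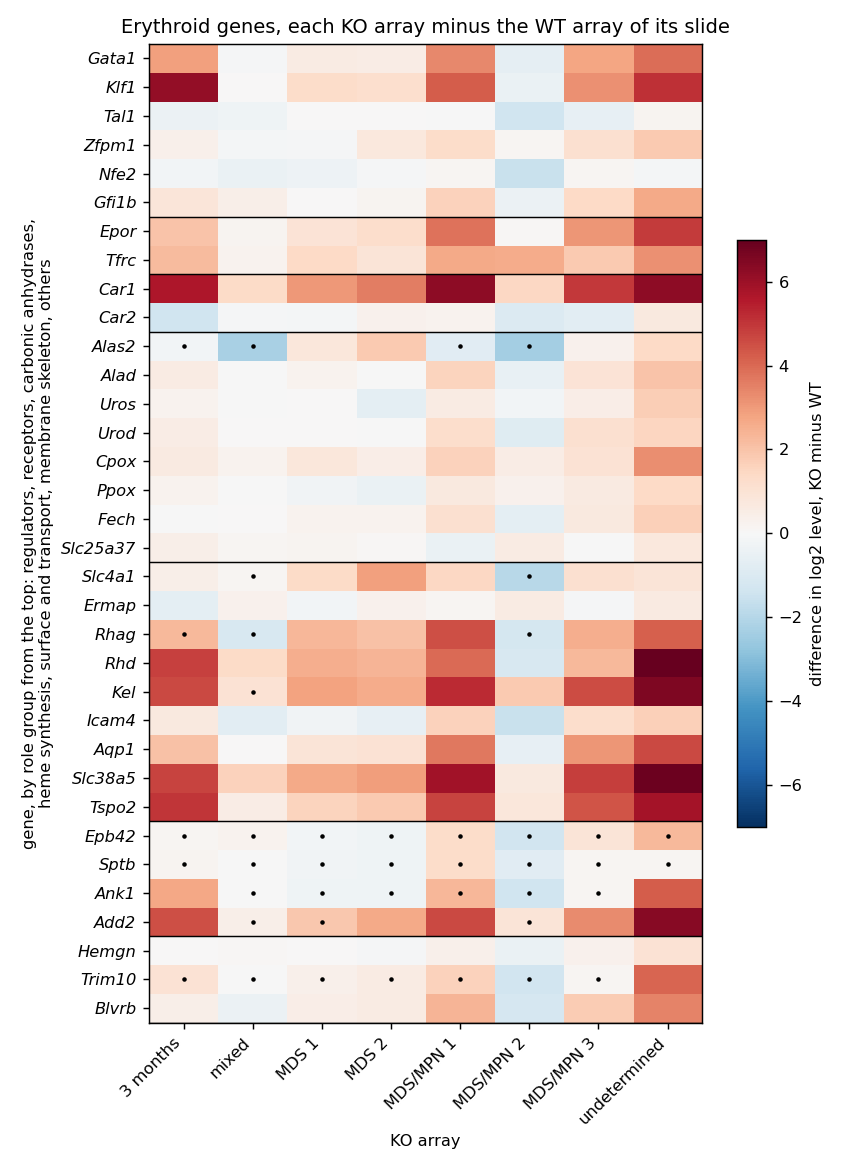
Difference in log2 level between each KO array (columns) and the WT array of its slide for the 34 erythroid genes (rows, grouped by role, lines between groups). Red is higher in KO and blue lower, and a black dot marks a pair in which neither array was well above background. The undetermined array and MDS/MPN arrays 1 and 3 are the reddest columns, and the mixed array and MDS/MPN array 2 the palest or bluest.

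At 9 to 12 months the 6 KO arrays with their own sample code were set against the lone WT array of that time, whose spread is taken to equal that of the KO arrays. Of the 34 genes, 31 were positive, where 48.8% of all tested features were. The median difference was 0.87, against -0.01 over all 19595 features tested. With limma, 0 of 30 tested genes were called, where 0.592% of all features were. At an unadjusted p under 0.05, Car1, Kel and Tfrc were higher, where 1.42% of all features were, and 0 erythroid genes lower, where 3.25% were. Car1 differed by 4.25 ± 1.60 (SE, adjusted p = 0.78) and Tfrc by 2.09 ± 0.79 (SE, adjusted p = 0.78). Kel, which passed the filter through the KO arrays alone, was at least 3.11-fold higher (adjusted p = 0.81). In 8 genes all 6 KO arrays lay above the WT array, against 9.29% of all features, and in none did all lie below it (13.9%). Epor, Tfrc, Car1, Cpox, Slc38a5 and Tspo2 were well above background on all 7 arrays, 6 of 25 erythroid genes so measured, against 9.77% of all features so measured (0 of the 25 lay below, against 9.75%). The other 2 were Kel and Add2, both at background on the WT array, and Add2 also on MDS array 1 and MDS/MPN array 2. The median was 0.49 without the undetermined array, 0.51 with normexp and quantile normalization and 0.40 with only the MDS arrays, which share the slide line of the WT array. It was 1.33 with the time labels of the value table.

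Within the diseased KO samples, the 3 MDS/MPN arrays were set against the 2 MDS arrays. With limma, 0 of 30 tested erythroid genes and 0% of all 20731 features were called. At an unadjusted p under 0.05, Tfrc and Ppox were higher in MDS/MPN (1.49% of all features) and Alas2 lower (2.97%). Tfrc had levels of 2.09, 1.99 and 1.22 on MDS/MPN arrays 1 to 3, against 0.82 and 0.33 on MDS arrays 1 and 2, a difference of 1.19 ± 0.42 (SE, adjusted p = 0.99). Ppox, the protoporphyrinogen oxidase, had 2.35, 1.95 and 2.28 in MDS/MPN, against 1.40 and 1.18 in MDS, a difference of 0.91 ± 0.33 (SE, adjusted p = 0.99). These 2 were also the genes whose MDS/MPN arrays all lay above the MDS arrays, against 7.74% of all features. Alas2 had -3.06, -4.67 and -1.98 in MDS/MPN, against -1.45 and -0.45 in MDS, a difference of -2.28 ± 0.84 (SE, adjusted p = 0.99). It was well above background on 1 MDS/MPN array and on both MDS arrays. Alas2 and Tal1 were the genes with all MDS/MPN arrays below the MDS arrays, against 12% of all features. Among the 26 erythroid genes well above background on all 5 arrays, 2 lay above (8.75% of all features so measured) and 1, Tal1, below (11.4%). Markers of other cells differed too, and their part in these differences was not tested. Of 9 tested stem cell markers, 6 were lower in MDS/MPN at an unadjusted p under 0.05 (median -1.45), as were 2 of the 5 gate genes (median -0.79). All 5 tested globins had negative differences (median -2.30).

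MDS/MPN array 2 stood apart from the other 2 MDS/MPN arrays. Klf1 had 3.10, -1.62 and 2.06 on MDS/MPN arrays 1 to 3, against 0.13 and 0.03 on the MDS arrays, 2.15-fold higher in the mean with an adjusted p of 0.99. Gata1 had 6.14, 2.13 and 5.54, against 3.37 and 3.28, and Epor 4.30, 0.57 and 3.61, against 1.43 and 1.72. In each case MDS/MPN arrays 1 and 3 lay above both MDS arrays and array 2 below both. Slc4a1, at background on MDS/MPN array 2, had -0.80, -4.20 and -1.15 in MDS/MPN, against -0.91 and 0.61 in MDS, a difference of -1.90 ± 1.13 (SE, adjusted p = 0.99). The median over the 34 genes was 0.51, against -0.02 over all features. It was 1.12 without MDS/MPN array 2, 0.06 without MDS/MPN array 1 and 0.26 with normexp and quantile normalization.

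Whether KO minus WT differed between the later arrays of slide 2 and the 3-month arrays of slide 1 was tested as a difference of differences. The 6 coded KO arrays supply all of the spread in this fit, since the other 3 groups are 1 array each and are assumed to vary alike. With limma, 0 of 31 tested erythroid genes and 0% of 23292 features were called, and no erythroid gene had an unadjusted p under 0.05 in either direction (2.39% of all features higher, 2.6% lower). The median was 0.04, against -0.23 over all features, and 1.25 with the time labels of the value table. Between the WT arrays, 6 of 26 erythroid genes were at least 2-fold higher at 9 to 12 months than at 3 months (9.87% of all features) and 0 lower (14.1%), with a median of 0.51.

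The erythroid genes varied together across the 8 KO arrays. Pearson's r with Klf1, over genes well enough measured to be tested, exceeded 0.8 for 20 of 29 other genes, and for 18.7% of all other features well above background on at least 4 KO arrays. It was 0.996 for Aqp1, 0.98 for Gata1 and Tspo2, 0.99 for Blvrb, 0.97 for Car1 and Kel and 0.96 for Epor. The 8 points share slides and scaling: Klf1 also had an r of -0.80 with log2 of the array's 75th percentile intensity. The lowest values were -0.17 for Slc25a37, 0.34 for Alas2 and 0.37 for Slc4a1, beside Ermap, whose brightest probe had -0.08 and the other 2 probes 0.95 and 0.96. Alas2 and Slc4a1 had an r of 0.78 with each other, but Alas2 was at background on 4 of the 8 KO arrays and Slc4a1 on 2. On the 3-month KO array Klf1 stood at 1.91, near MDS/MPN array 3 at 2.06, while Alas2 was at background there and well above it on MDS/MPN array 3.

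**Figure D5:**
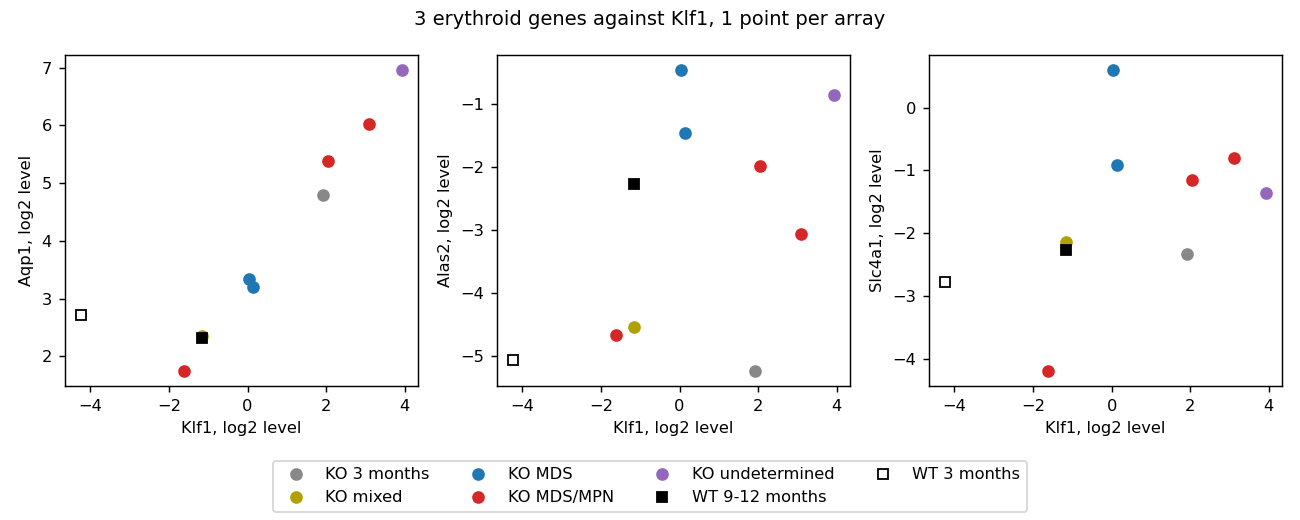
Log2 levels of Aqp1, Alas2 and Slc4a1 (vertical axes) against Klf1 (horizontal axes), 1 point per array, KO as circles and WT as squares. Aqp1 lines up with Klf1 over the 8 KO arrays (r = 0.996), while Alas2 (0.34, at background on 4 KO arrays) and Slc4a1 (0.37, at background on 2) are highest on MDS array 2, where Klf1 is 0.03.

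The 10 other genes whose level followed the erythroid genes most closely over all 10 arrays were drawn from 9680 named genes well above background throughout. The measure was r with the median standardised level of the 23 erythroid genes seen on every array. Abcb6, a porphyrin transporter, came first at 0.996. Glrx5, which serves mitochondrial iron-sulfur assembly, had 0.984 and Abcb10, a mitochondrial transporter of erythroid cells, 0.976. The others were Hagh, Pcbp2, Fance, Fbxw5, Klf16, Mlf2 and Lamp1, from 0.977 to 0.986.

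Other genes of the pathway were looked at in lists. In the comparison over all arrays none passed limma's adjusted threshold. Over all features tested there, 53.3% were positive, and 1.9% were higher and 3.64% lower at an unadjusted p under 0.05. Of 10 tested genes of erythropoietin receptor signalling, 0 had an unadjusted p under 0.05 and the median difference was 0.07. Its largest differences were -0.70 ± 0.77 for Socs2 and -0.70 ± 0.96 for Socs3 (SE), feedback inhibitors of cytokine receptors. Jak2, the kinase that Epor uses, differed by -0.32 ± 0.39 and Lyn by 0.25 ± 0.33.

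Of 22 tested genes of heme and iron handling, 1 was higher at an unadjusted p under 0.05, 17 were positive and the median was 0.31. That gene was Alas1, the housekeeping form of the enzyme that starts heme synthesis. Its KO levels ran from 4.98 to 7.56, against 4.95 and 3.83 on the WT arrays at 9 to 12 and 3 months, so all KO arrays lay above (difference 1.69 ± 0.70, SE, adjusted p = 0.85). The iron exporter Slc40a1 was well above background on all 8 KO arrays and on neither WT array. Its fitted difference was 2.01 ± 0.99 (SE, adjusted p = 0.95), or 4.04-fold. The bound on the ratio of means, which leaves out the slide, was 4.82-fold and so exceeds the fitted value. On MDS/MPN array 2 Slc40a1 stood at -2.51, below the -2.30 of the WT array of its slide. The ferrireductase Steap3 differed by 1.43 ± 0.81 and Abcb6 by 1.11 ± 0.82 (SE).

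Of 24 tested transcription partners, 2 (E2f2, and Tcf3, named after its value was seen) were higher at an unadjusted p under 0.05, and the median was 0.18. The cell cycle factor E2f2 lay between 2.67 and 3.94 on KO arrays, against 2.56 and 1.30 on WT arrays (1.03 ± 0.42, SE, adjusted p = 0.85). Nfia differed by -1.38 ± 1.11, Foxo3 by -0.92 ± 0.45 and E2f4 by 0.91 ± 0.50. Of 13 other red cell membrane genes, 1 was higher at an unadjusted p under 0.05, all 13 were positive and the median was 0.36. Atp1b2, a sodium pump subunit, ran from -2.06 to 4.49 in KO, against -2.06 and -4.99 in WT (3.60 ± 1.46, SE, adjusted p = 0.83). Tspan33, Ackr1 and Xk differed by 1.66 ± 1.04, 1.22 ± 1.05 and 1.03 ± 0.67. Of 24 other terminal erythroid genes, 1 was higher at an unadjusted p under 0.05, 14 were positive and the median was 0.22. Spire1, an actin nucleator, differed by 1.54 ± 0.52 (SE, adjusted p = 0.67), the metallothionein Mt2 by 3.28 ± 1.61 and Cldn13 by 2.58 ± 1.79. Prss50 was well above background on 6 KO arrays and 0 WT arrays, and so passed the filter through the KO arrays alone. Its mean was at least 2.74-fold higher in KO, with a fitted difference of 2.19 ± 1.02 (SE, adjusted p = 0.91).

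Markers of other cell types differed between KO and WT to varying degrees, and their part in the differences of the erythroid genes was not tested. In the same comparison all 9 tested stem cell markers had negative differences (median -1.88), with a summed level of 3.71 to 6.34 on KO arrays, against 6.24 and 7.24 on WT arrays. All 10 tested mast cell and basophil genes had positive differences (median 2.29), summed levels running from 4.33 to 7.01 in KO, against 4.58 and 4.03 in WT. All 11 neutrophil genes had positive differences (median 1.67), at 9.70 to 12.1 in KO, against 10.1 and 8.35 in WT. Megakaryocyte genes, which share Gata1, Gfi1b and Nfe2 with red cells, had a median of -0.16, with 4 of 15 positive, and summed levels of 5.83 to 8.31 in KO, against 6.22 and 7.16 in WT. In the comparison at 9 to 12 months their median was 0.47, with 9 of 13 tested genes positive, so their direction depends on the arrays compared. Of the 10 macrophage markers, Cd163, Siglec1 and Mertk were well above background on no array, and Spic on all 10. Vcam1 was well above background on 7 KO arrays, Adgre1 on 5, C1qc on 3, Marco on 2 and C1qa on 1. None of these was well above background on a WT array. C1qb was well above background on 5 arrays, 4 of them KO. Its WT levels of -2.49 and -2.46 lay inside its KO range of -2.96 to -0.89. Vcam1 ran from -4.22 to 2.63 in KO, against -3.75 and -4.43 in WT. Of 4 tested macrophage markers, 3 were positive (median 0.97). Their summed levels over the list ran from 0.15 to 3.10 in KO, against 0.41 and -0.41 in WT. All 5 tested B cell genes had positive differences (median 1.93), summed levels running from 4.69 to 6.52 in KO, against 4.70 and 4.29 in WT. The highest of these KO sums was on MDS/MPN array 2. Of 5 tested T cell genes, 4 were positive (median 0.16), with summed levels of 4.67 to 6.33 in KO, against 5.03 and 4.90 in WT. The globins, summed, were highest on MDS array 2 at 9.02, with 8.48 on MDS array 1 and 8.43 on the undetermined array. They stood at 7.88, 5.43 and 7.76 on MDS/MPN arrays 1 to 3. The sums were 5.81 on the 3-month KO array and 4.87 on the mixed array, against 4.66 and 5.18 on WT arrays. Alas2 and Slc4a1 were also highest on MDS array 2, and Klf1 was not.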

How the data were processed

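RNA of sorted LSK cells (0.02 µg) was labelled with Cy3 and hybridised to 1-colour Agilent arrays, per the labels' protocols. The deposited scanner files give background-subtracted intensity per spot (gProcessedSignal). They come from Feature Extraction 10.7.1.1 per the file headers, and from version 9.1 per the submitters' processing notes. The deposited value table holds each array's intensity as a linear ratio to its 75th percentile, found by setting its columns against the scanner files. In it, 4 columns carry another array's values. It was used as an alternative only.

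Spots of a probe were averaged without control and outlier spots, and log2 of the intensity was taken relative to the array's 75th percentile. Of 55681 probes, 29123 have a RefSeq accession and 27656 were named through RefSeq (GRCm38.p6), giving 20972 genes. The brightest probe stood for a gene. A feature was tested when well above background on at least 50% of the arrays of either group. Tests used limma 3.58.1 in R 4.3.3 with Benjamini-Hochberg adjustment over all features at 0.05, and were tested on simulated data. Figures and tables used Python 3.11.15, and the motif search covered both strands.

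Genes named are the 34 matched members, up to 4 genes per related list with the largest KO minus WT difference, and the 10 genes most like the members' profile. The members and lists were chosen with earlier results of these data known. Alternatives were quantile normalization, normexp (offset 50) with quantile normalization, other filters, the median probe, trended robust moderation, the value table and its time labels, no slide term, other array sets, and leaving out each array.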

Additional observations from a re-analysis of the deposited data

Results flagged for a closer look

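In groups of 6 and 8 arrays, the gap between the extreme array and its neighbour was set against the range of the group by Dixon's ratio. Of 68 groups looked at, 4 exceeded the critical value, and chance flags about 1 in 20. Nfe2, which megakaryocytes use as well as red cells, stood at 5.20 on MDS/MPN array 2. That was the lowest of the 6 coded KO arrays at 9 to 12 months (ratio 0.689, next value 6.38) and of all 8 KO arrays (ratio 0.619, next value 6.26). Cpox stood at 4.61 on the undetermined array, the highest of the 8 KO arrays (ratio 0.538, next value 2.99). Sptb stood at -3.25 on MDS/MPN array 1, the highest of the 8 KO arrays (ratio 0.538), and was well above background on no array.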

How the results depend on the processing

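In all 4 comparisons, 0 erythroid genes were called under every alternative run, including those that called other features. Over all features at 9 to 12 months, 1 was called higher and 115 lower. Over the alternatives the higher calls ran from 0 to 38 and the lower from 0 to 239, the last with quantile normalization. Over all arrays 0 features were called, but 176 lower and 1 higher without the 3-month WT array. The difference of differences had 40 higher and 145 lower calls with quantile normalization.

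The medians over the 34 genes kept their sign in the comparisons over all arrays (0.37 to 0.98), at 9 to 12 months (0.40 to 1.33) and between MDS/MPN and MDS (0.06 to 1.12). The difference of differences ran from -0.21 to 0.28 when arrays were left out and was 1.25 with the value table's time labels. Over all arrays, 4 genes changed sign. Alas2 (-0.17) became 0.0062 with normexp and quantile normalization and 0.89 without the slide term. With arrays left out it ran from -0.18 to 0.068, turning without the mixed array (0.053) and without MDS/MPN array 2 (0.068). Ermap (-0.10) became 2.99 with the median probe, and with arrays left out it ran from -0.68 to 0.23, turning without either 3-month array. Hemgn (0.12) became -0.16 with quantile normalization, -0.17 with normexp and quantile normalization and -0.092 without the slide term. Fech (0.29) ran from -0.041 to 0.48 with arrays left out, turning without the 9 to 12 month WT array. The causes were not tested.

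No paired analysis was possible because the labels give the groups no shared replicate numbers. Each WT group is 1 array and the disease labels follow the slide line. Genes near background, such as Alas2, Add2 and Kel, are limited by signal over background.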
